A study of Homo sapiens with 12 samples.

Results

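The genes described here are 8 chaperones, cochaperones and folding factors of the endoplasmic reticulum (ER), HSPA5, HSP90B1, DNAJB9, SDF2L1, PDIA4, CALR, HYOU1 and DNAJC3, together with HERPUD1, a factor of ER-associated degradation, and XBP1, a transcription factor of the ER stress response. They were taken by gene symbol, 10 of 46350 named genes in the deposited count files, and the set was chosen by the level of HSPA5, which is among the most abundant transcripts of SKOV3/DDP cells. All 10 passed the filter on low counts, which kept 17133 genes. The RNA-seq series held 12 libraries in 4 groups of 3: SKOV3, a human ovarian cancer line sensitive to cisplatin; SKOV3 with paeonol (PAE), a phenolic plant compound; SKOV3/DDP, a cisplatin-resistant ovarian cancer line; and SKOV3/DDP with PAE. The submitters describe the replicates as biological triplicates, and the labels give no dose or duration of PAE. The names of the count columns carry the mark 1.5P for SKOV3 with PAE and 2.4P for SKOV3/DDP with PAE, whose meaning is not given, so that an unequal dose and the line cannot be told apart where the groups with PAE are compared. Each condition is represented by 1 cell line, and no label names an exposure to cisplatin, so a difference between the lines is not a measured effect of cisplatin. The group of libraries in which HSPA5 was noticed is SKOV3/DDP, and its own differences that involve SKOV3/DDP are therefore given without a test.

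The ER is where secreted and membrane proteins fold. HSPA5 (BiP, GRP78) is the HSP70 chaperone of that compartment and holds the stress sensors IRE1, PERK and ATF6 inactive until unfolded proteins draw it away. IRE1 then splices XBP1 mRNA, ATF6 is cut to release a transcription factor, and PERK phosphorylates eIF2 alpha. XBP1 and ATF6 raise transcription of chaperones and of the machinery for ER-associated degradation, in part through the ER stress response element, in which a CCAAT box stands at a fixed distance from CCACG. Gene-level counts do not separate spliced from unspliced XBP1 mRNA.

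The promoters of the members are shown because 7 of the 10 hold one of the 2 long forms of this element within 250 bases before to 50 bases after a start site (RefSeq, GRCh38.p14). The first form was searched as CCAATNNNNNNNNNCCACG and the second as ATTGGNCCACG, on both strands. Capitals mark the CCAAT and CCACG blocks or their reverse complements, in the order of the gene's own strand.
HSPA5 (chr9:125241383-125241417, minus strand): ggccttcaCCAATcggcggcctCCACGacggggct
HSP90B1 (chr12:103930208-103930347, plus strand): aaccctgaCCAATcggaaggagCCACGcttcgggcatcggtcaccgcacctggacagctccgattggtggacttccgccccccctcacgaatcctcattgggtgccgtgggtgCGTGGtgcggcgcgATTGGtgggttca
CALR (chr19:12938376-12938410, plus strand): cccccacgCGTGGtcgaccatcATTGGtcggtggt
XBP1 (chr22:28800595-28800629, minus strand): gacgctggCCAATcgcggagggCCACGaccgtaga
SDF2L1 (chr22:21642106-21642132, plus strand): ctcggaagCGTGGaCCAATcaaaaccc
HYOU1 (chr11:119057266-119057398, minus strand): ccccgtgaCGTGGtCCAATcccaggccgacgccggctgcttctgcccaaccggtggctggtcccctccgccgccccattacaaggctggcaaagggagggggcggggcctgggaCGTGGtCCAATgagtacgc
HERPUD1 (chr16:56932017-56932043, plus strand): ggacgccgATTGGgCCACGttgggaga
HSPA5, CALR and XBP1 hold the first form once and HSP90B1 holds it 2 times, whereas SDF2L1 and HERPUD1 hold the second form once and HYOU1 holds it 2 times. DNAJB9, PDIA4 and DNAJC3 hold neither in this window. The first form was found in 27 of 35116 promoters of the same length (0.0769%), the second in 19 (0.0541%) and either in 46 (0.131%). The short blocks are common: CCACG alone lies in 38.1% of promoters and CCAAT alone in 34.6%, and each lies in the promoters of all 10 members. A match of letters is a description and not a measured binding site.

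**Figure D1:**
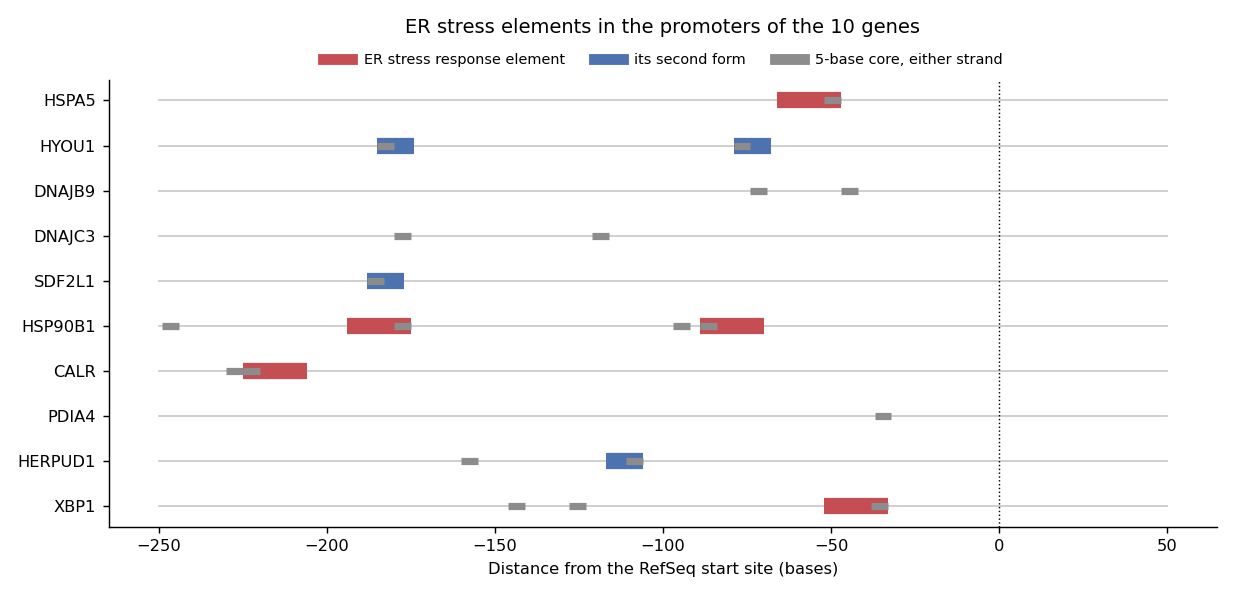
Position of each long ER stress response element (wide red and blue bars for the first and second form) and of each CCACG core on either strand (narrow grey bars), in bases from the RefSeq start site (horizontal axis), with 1 row per gene and 1 of the 2 promoters of PDIA4. DNAJB9, DNAJC3 and PDIA4 have grey bars and no wide bar, and HSP90B1 and HYOU1 have 2 wide bars each.

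The libraries held 14610008 to 18263479 counts, of which 1.29 to 2.44% were mitochondrial in the 6 SKOV3 libraries and 3.93 to 11.2% in the 6 SKOV3/DDP libraries. In untreated SKOV3 the intestinal markers CDX1, CDX2, VIL1, CDH17 and LGALS4 summed to 0.171 to 0.578 CPM (counts scaled to a common library size) and 4 of the 5 were at 0. In untreated SKOV3/DDP all 5 were above 1 CPM in every library and summed to 555 to 631 CPM, and with PAE they summed to 199 to 285. PAX8, a marker of Mullerian carcinoma, lay at 14.9 to 22.1 CPM in untreated SKOV3 and at 3.31 to 6.05 CPM in untreated SKOV3/DDP, and EPCAM at 0.274 to 1.31 against 297 to 307 CPM. The 5 ovarian and Mullerian markers together, PAX8 among them, summed to 298 to 343 CPM in untreated SKOV3 and to 495 to 543 CPM in untreated SKOV3/DDP. The part of these differences in the results on the 2 lines was not tested.

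A pair of libraries stood apart in the members themselves. In SKOV3 with PAE, replicate 1 lay above both other replicates for all 10 members and more than 2-fold above their mean for 8, where 2.75% of 9888 genes of at least 10 CPM were more than 2-fold above. Its excess was 6.10-fold for HSPA5, the 26th largest of those genes, 1.90-fold for DNAJC3 and 1.37-fold for XBP1. In untreated SKOV3/DDP, replicate 2 likewise lay above both others for all 10 members and more than 2-fold above for 8, against 5.29% of 9808 genes, with 9.07-fold for HERPUD1, 8.18-fold for DNAJB9, 5.18-fold for HSPA5, 1.86-fold for CALR and 1.58-fold for HYOU1. Of the genes of the PERK arm with at least 10 CPM, 4 of 6 were more than 2-fold above in the first of these libraries and 6 of 6 in the second, while of the stress sensors 1 of 5 and 2 of 5 were. The counts were 7 and 8 of 11 for chaperones outside the ER, 3 and 7 of 15 for the other ER chaperones and 0 and 8 of 18 for ER-associated degradation, and at most 3 in each of the remaining lists. DDIT3 (CHOP), the transcription factor induced by PERK signalling, had 24.6, 586 and 58.0 CPM in untreated SKOV3/DDP and 199, 25.95 and 33.1 CPM in SKOV3 with PAE. Differences of the members that rest on these libraries are given with and without them. Because both were singled out by the levels of the members, the direction in which leaving either out moves a member was fixed beforehand. Counts without them are therefore a description.

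**Figure D2:**
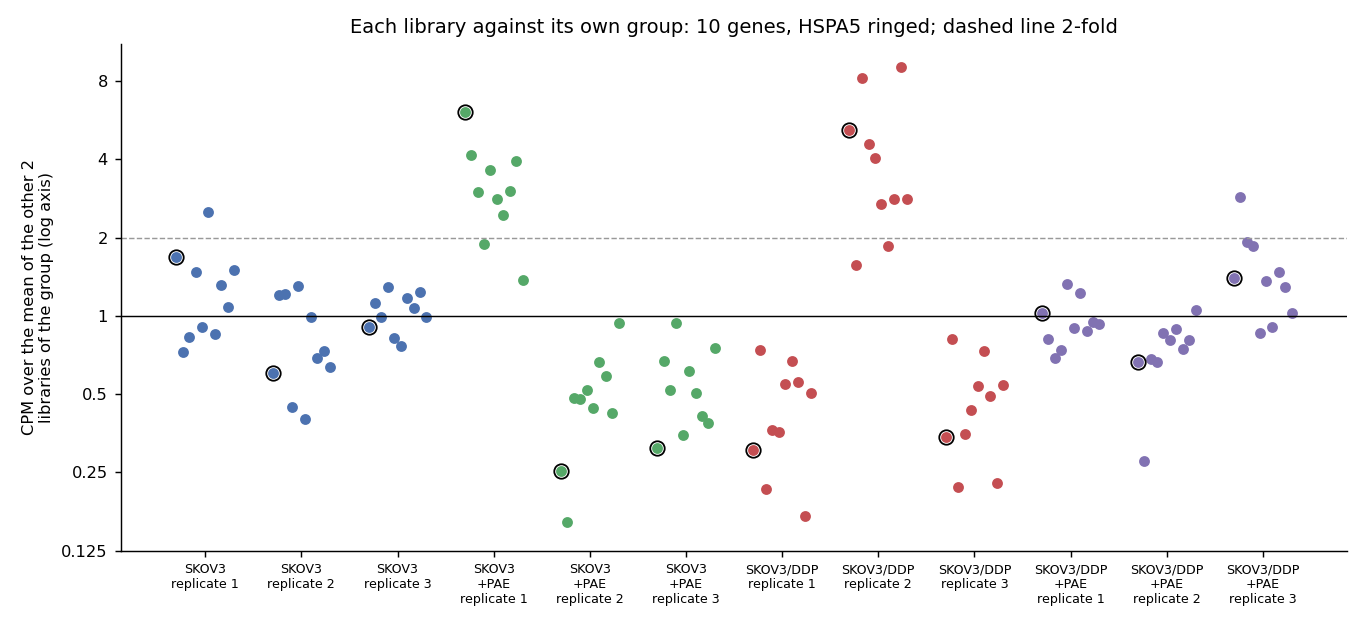
Each point is the CPM of 1 of the 10 genes in 1 library over the mean of the other 2 libraries of its group (vertical log axis), with HSPA5 ringed and a dashed line at 2-fold. SKOV3 with PAE replicate 1 and SKOV3/DDP replicate 2 have 8 of 10 genes above the dashed line.

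The untreated SKOV3 libraries also differed from the other 9 by the base composition of transcripts. Over 15683 genes, the Spearman correlation of each library's deviation with the GC content of the gene was 0.669 to 0.675 in the 3 untreated SKOV3 libraries and -0.534 to -0.325 in the other 9. The members run from 39.9% GC in DNAJC3 to 65.5% in SDF2L1. Genes of 35 to 45% GC had a median log2 difference of 2.83 for PAE in SKOV3, and genes of 60 to 70% had -2.36. Comparisons against untreated SKOV3 are therefore also given after a smooth dependence on GC content and length was taken out of each library. All 3 untreated SKOV3 libraries share this bias, so it cannot be told apart from the condition. Values below are CPM scaled by TMM, in the order of replicates 1, 2 and 3, and means are given ± SD with n = 3. Where groups are said to overlap or not, the share of all genes that separate in the same way was not counted. Such statements describe the gene named and do not set it apart from other genes.

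HSPA5 had 592, 299.6 and 405 CPM in SKOV3 and 5601, 836 and 1000.5 CPM in SKOV3 with PAE. In SKOV3/DDP it had 3651, 19856 and 4020.5 CPM, and 6695, 4916 and 8098 CPM with PAE. Untreated SKOV3 was the lowest group and did not overlap any other, and the other 3 groups overlapped with their neighbours in level. The means were 432 ± 148, 2479 ± 2705, 9176 ± 9251 and 6569.8 ± 1595 CPM. By raw count HSPA5 ranked 475th, 1127th and 765th of all genes in untreated SKOV3, 1st, 71st and 47th in SKOV3 with PAE, 14th, 2nd and 14th in SKOV3/DDP and 2nd, 6th and 2nd in SKOV3/DDP with PAE. The chosen ground for the set, abundance of HSPA5 in SKOV3/DDP, thus held in all 6 libraries of that line, and in SKOV3 it held with PAE and most in replicate 1.

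HYOU1, the large HSP70-related chaperone that exchanges nucleotide on HSPA5, was low in all groups. It had 48.7, 68.9 and 65.9 CPM in SKOV3, 53.6, 5.89 and 19.9 CPM with PAE, 51.4, 83.8 and 55.03 CPM in SKOV3/DDP and 89.1, 37.5 and 181 CPM in SKOV3/DDP with PAE, and all 4 groups overlapped with their neighbours. The 3 cochaperones of HSPA5 did not share 1 pattern. DNAJB9 (ERdj4), a J-domain protein that loads HSPA5 onto IRE1, had 6.74, 8.69 and 7.63 CPM in SKOV3 and 126, 40.8 and 43.3 CPM with PAE. It had 42.3, 349.6 and 43.2 CPM in SKOV3/DDP and 186, 185 and 357 CPM with PAE, so that of the 4 groups only untreated SKOV3 stood clear of the other groups. DNAJC3 (p58IPK), a J-domain protein that also inhibits PERK, had 8.51, 3.66 and 7.88 CPM in SKOV3, 158, 63.0 and 104 CPM with PAE, 174, 787 and 168 CPM in SKOV3/DDP and 208, 192 and 371 CPM with PAE, and only the 2 groups of SKOV3/DDP overlapped. Both J-domain genes were near the lower limit of this depth in untreated SKOV3, where DNAJC3 had as few as 43 counts and DNAJB9 as few as 76 in a library. SDF2L1, which keeps the J-domain protein DNAJB11 and its clients in solution, ran the other way. It had 209.7, 265 and 196 CPM in SKOV3, 71.6, 22.9 and 16.5 CPM with PAE, 69.5, 307 and 81.9 CPM in SKOV3/DDP and 70.3, 53.2 and 53.1 CPM with PAE, with SKOV3 highest by mean and overlapping SKOV3/DDP. Scaled by library totals alone, the means of SDF2L1 were 146 CPM in untreated SKOV3 and 154 CPM in untreated SKOV3/DDP.

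HSP90B1 (GRP94), the HSP90 of the ER, was the member whose 4 groups were fully ordered, with no overlap between neighbours. It had 264, 79.3 and 131 CPM in SKOV3, 2080.3, 643 and 838 CPM with PAE, 2305, 2141 and 3012 CPM in SKOV3/DDP with PAE and 3339, 8938 and 3302 CPM in SKOV3/DDP. CALR, the lectin chaperone that binds calcium and folds glycoproteins, was abundant everywhere. It had 3967, 4388 and 4911 CPM in SKOV3, 2257, 1025 and 831 CPM with PAE, 2488, 4789 and 2663 CPM in SKOV3/DDP and 2406, 1951 and 1965 CPM with PAE. For CALR the untreated groups overlapped with each other, and on this scale no library of either group with PAE reached them. Scaled by library totals alone, replicate 1 of SKOV3 with PAE had 2659 CPM against 2584 in replicate 1 of untreated SKOV3. In SKOV3/DDP, replicate 1 likewise had 2867 CPM with PAE against 2726 untreated. The means of the untreated groups were then 2903 CPM in SKOV3 and 3423 CPM in SKOV3/DDP. PDIA4 (ERp72), a protein disulfide isomerase, had 894, 579.6 and 788 CPM in SKOV3, 875, 330.2 and 249 CPM with PAE, 1285, 3439.9 and 1159.7 CPM in SKOV3/DDP and 613, 545 and 853 CPM with PAE. Untreated SKOV3/DDP was highest for PDIA4 and did not overlap the other groups.

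HERPUD1, a membrane protein of the HRD1 degradation complex, had 133, 102 and 145 CPM in SKOV3 and 784, 207 and 192 CPM with PAE. It had 160.4, 1681 and 210.1 CPM in SKOV3/DDP and 433, 387 and 528 CPM with PAE, and replicate 2 alone set the mean of untreated SKOV3/DDP (684 ± 864 CPM). XBP1, whose mRNA IRE1 splices, had 274, 154 and 211 CPM in SKOV3, 348, 274 and 234 CPM with PAE, 141, 408 and 149 CPM in SKOV3/DDP and 331, 361 and 353 CPM with PAE. Its groups overlapped with their neighbours in level, and its highest mean was 348 ± 15.6 CPM, in SKOV3/DDP with PAE.

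**Figure D3:**
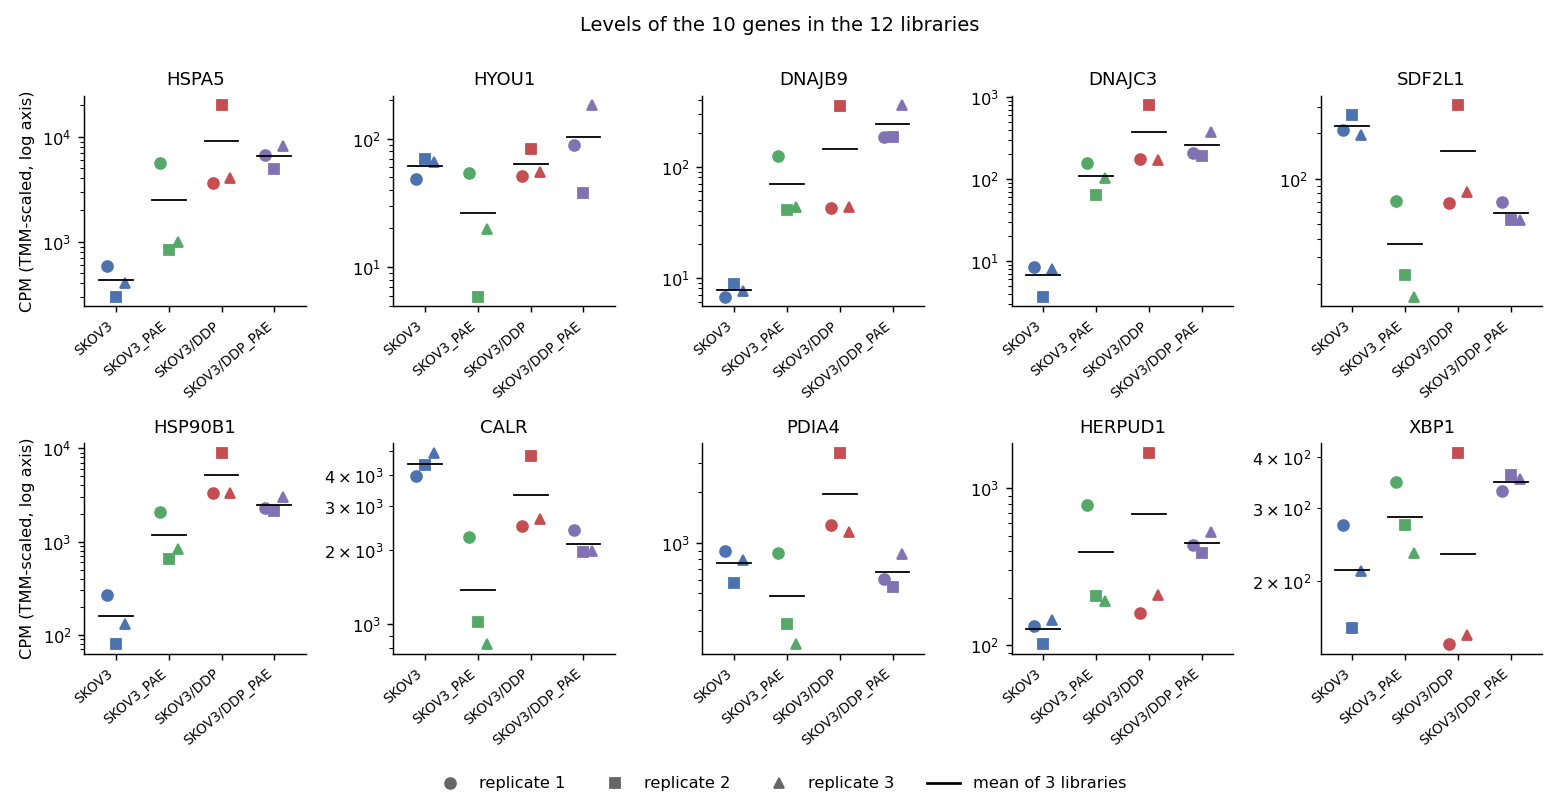
CPM (TMM-scaled, log axis) of the 10 genes, 1 panel per gene, with 1 point per library and a bar at the mean of 3 libraries in each of the 4 groups. HSPA5, HSP90B1, DNAJB9, DNAJC3 and HERPUD1 have their lowest points in untreated SKOV3. SDF2L1 and CALR have their highest mean there on this scale, and in untreated SKOV3/DDP by library totals.

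Per kilobase of gene length, the order of the members themselves differed between the untreated lines. With PAE the orders were closer: CALR, HSPA5 and HSP90B1 led in SKOV3, and HSPA5, CALR and HSP90B1 in SKOV3/DDP. The part of the base composition of untreated SKOV3 in these orders was not tested. In untreated SKOV3 CALR was highest, followed by SDF2L1, PDIA4, XBP1 and HSPA5. In untreated SKOV3/DDP HSPA5 was highest at 2340.2 CPM per kb, followed by HSP90B1 at 1867 and CALR at 1743, and HYOU1 was lowest at 6.69. The ratio of HSPA5 to CALR counts was 0.0683 to 0.149 in the untreated SKOV3 libraries and 1.47 to 4.15 in the untreated SKOV3/DDP libraries. In the libraries with PAE it was 0.815 to 2.48 in SKOV3 and 2.52 to 4.12 in SKOV3/DDP. The 10 members held 0.382 to 0.462% of all counts in untreated SKOV3, 1.46, 0.419 and 0.433% in the 3 libraries of SKOV3 with PAE, 1.25, 3.95 and 1.29% in SKOV3/DDP and 1.59, 1.31 and 1.80% in SKOV3/DDP with PAE. In such bulk libraries, more cells of a kind and more RNA per cell cannot be told apart. Pseudogene copies took few reads, at most 0.245 CPM for HSPA5P1 and 4.72 CPM for HSP90B2P. MIR3652 within HSP90B1 and MIR6515 within CALR had 0 counts.

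The first comparison asks what PAE did in SKOV3. Of the 10 members, HSPA5, HSP90B1, DNAJB9, DNAJC3 and HERPUD1 rose and SDF2L1 and CALR fell. That is 5 of 10 higher against 42.6% of all genes and 2 of 10 lower against 32.7%, so that the share called was close to that of all genes. The log2 differences were 2.52 (SE 0.719, adjusted p = 0.00506) for HSPA5, 2.91 (SE 0.528, adjusted p = 1.32e-04) for HSP90B1, 3.19 (SE 0.728, adjusted p = 9.93e-04) for DNAJB9 and 4.02 (SE 0.607, adjusted p = 2.14e-05) for DNAJC3. HERPUD1 was at 1.64 (SE 0.715, adjusted p = 0.0489), and it passed in 2 of the 6 fits that each left out 1 library of the 2 groups, losing its call without any 1 of the 3 untreated SKOV3 libraries or PAE replicate 1. CALR fell by 1.69 (SE 0.345, adjusted p = 3.85e-04) and SDF2L1 fell by 2.60 (SE 0.565, adjusted p = 6.59e-04). PDIA4 at -0.64 (adjusted p = 0.213), HYOU1 at -1.21 (adjusted p = 0.0800) and XBP1 at 0.42 (adjusted p = 0.286) did not pass.

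The direction of these differences followed the GC content of the transcripts. The 4 members of 35 to 45% GC, HSP90B1, DNAJB9, DNAJC3 and XBP1, had positive differences in a class of 5329 genes whose median was 2.83, and SDF2L1 lay at -2.60 in a class of 2380 genes whose median was -2.36. After removal of that trend and of a trend on length, 1 of the 10 members passed, XBP1, which was lower at -1.45 (adjusted p = 0.00300), where 36.5% of all genes were higher and 16.5% lower. HSPA5 was then at 1.27 (adjusted p = 0.137), HSP90B1 at 0.70 (adjusted p = 0.217) and DNAJC3 at 1.29 (adjusted p = 0.0515). Without PAE replicate 1, which held the highest level of every member in its group, 3 rose (HSP90B1, DNAJB9, DNAJC3; 39.6% of all genes higher) and 4 fell (SDF2L1, PDIA4, CALR, HYOU1; 30.4% lower). HSPA5 was then at 1.10 (adjusted p = 0.0946), HERPUD1 at 0.66 (adjusted p = 0.4004), PDIA4 at -1.37 (adjusted p = 0.00927) and HYOU1 at -2.24 (adjusted p = 0.00342).

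**Figure D4:**
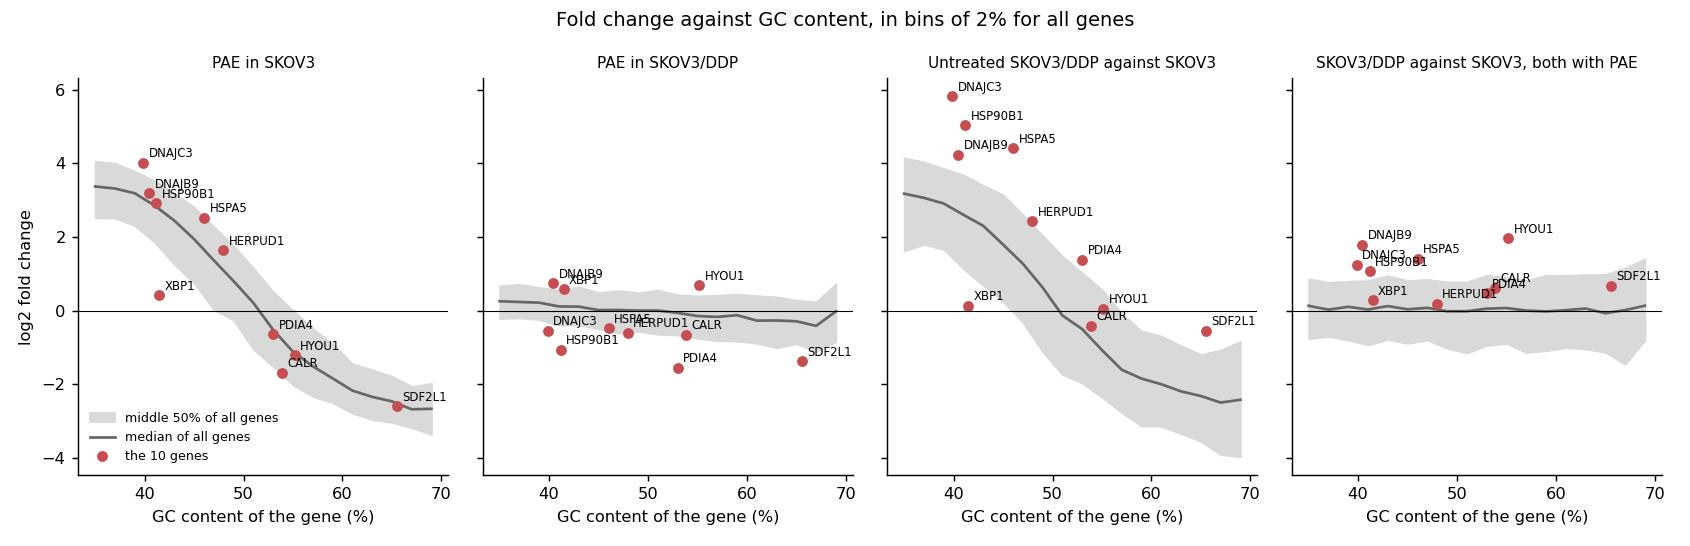
Log2 fold change (vertical axis) of each of the 10 genes (red points) against GC content in percent (horizontal axis) in 4 comparisons, with the median (line) and the middle 50% (grey band) of all genes in bins of 2% GC. In the 2 panels against untreated SKOV3 the line falls through 0 from left to right, and in the other 2 panels it stays near 0, where the 10 genes lie between -1.55 and 1.96.

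The wider ER machinery held genes of both directions after PAE in SKOV3. Of 83 tested genes in 6 lists (stress sensors, other chaperones, oxidative folding, glycan-dependent folding, degradation, translocation), 38 were higher and 33 lower, near the 42.6% and 32.7% of all genes, with a median of -0.03 against 0.48 for all genes. With the GC trend removed these became 16 and 31, where 36.5% of all genes were higher and 16.5% lower, and without PAE replicate 1 they were 33 and 34. Among the stress sensors 3 of 6 rose, among them EIF2AK3 (PERK) at 2.94 (SE 0.548, adjusted p = 1.69e-04), and the other 3 did not pass. Of 15 other ER chaperones 6 rose, such as DNAJC10 at 3.67 and HSPA13 at 3.67, and 8 fell, such as the nucleotide exchange factor SIL1 at -2.92 and CRELD2 at -2.93. Of 13 genes of oxidative folding 8 rose (TMX3 at 4.37) and 3 fell (PRDX4 at -2.97). Of 13 genes of the calnexin cycle and N-glycosylation 7 rose (STT3B, a catalytic subunit of oligosaccharyltransferase, at 3.45) and 5 fell (DDOST at -2.32). Of 20 genes of ER-associated degradation 7 rose (EDEM3 at 3.92) and 9 fell (SELENOS at -1.74), and of 16 genes of the translocon and signal peptidase 7 rose (SEC62 at 3.64) and 8 fell (SSR4 at -3.39). With the GC trend removed DNAJC10 at 0.42 (adjusted p = 0.220) and HSPA13 at 0.75 (adjusted p = 0.124) lost their calls. The other examples of the 6 lists kept sign and call. EIF2AK3 was at 1.23, SIL1 at -0.42, CRELD2 at -1.46, TMX3 at 1.37, PRDX4 at -1.46 and STT3B at 1.11. DDOST was at -0.79, EDEM3 at 1.01, SELENOS at -2.10, SEC62 at 0.57 and SSR4 at -0.81. In the PERK arm, 1 of 7 rose, DDIT3 at 3.22 (SE 1.01, adjusted p = 0.00952), and 3 fell, among them TRIB3 at -1.61 and CHAC1 at -1.99. With the GC trend removed the PERK arm had 3 of 7 higher and 0 lower by edgeR. TRIB3 was then at 1.03 (adjusted p = 0.252) and CHAC1 at 1.02 (adjusted p = 0.278), so that the falls did not hold under this removal. Without PAE replicate 1 the PERK arm had 0 of 7 higher by edgeR, also at an unadjusted p under 0.05, and 2 lower, while with all libraries DESeq2 and limma-voom each had 1 higher. Of 12 chaperones outside the ER 8 rose, such as HSP90AA1 at 3.604, and 1 fell, the mitochondrial TRAP1 at -2.12. With the GC trend removed HSP90AA1 was at 2.18 (adjusted p = 0.00209) and TRAP1 at -0.27 (adjusted p = 0.191).

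In SKOV3/DDP, PAE left most members without a call. PDIA4 fell by 1.55 (SE 0.461, adjusted p = 0.0231), the 1 member of 9 that passed, against 14.7% of all genes lower and 11.8% higher. HSPA5, described without a test, differed by -0.48. HSP90B1 was at -1.06 (adjusted p = 0.129), SDF2L1 at -1.38 (adjusted p = 0.0744), CALR at -0.65 (adjusted p = 0.169), DNAJC3 at -0.55 (adjusted p = 0.471) and HERPUD1 at -0.61 (adjusted p = 0.560). DNAJB9 at 0.74 (adjusted p = 0.431), HYOU1 at 0.70 (adjusted p = 0.415) and XBP1 at 0.58 (adjusted p = 0.236) had positive values. Several of these values changed without replicate 2 of untreated SKOV3/DDP. Without it, DNAJB9 rose by 2.51 (adjusted p = 0.00176) and XBP1 rose by 1.26 (adjusted p = 0.00352), 2 of 9 against 11.5% of all genes, and 0 of 9 fell by edgeR against 12.9%, with 1 at an unadjusted p under 0.05. PDIA4 was then at -0.87 (adjusted p = 0.129), and it also lost its call without PAE replicate 1 (adjusted p = 0.0791) or PAE replicate 2 (adjusted p = 0.0843). HSPA5 turned to 0.78, DNAJC3 to 0.59 and HERPUD1 to 1.28 (adjusted p = 0.0645). SDF2L1 passed without untreated replicate 1, at -1.69 (adjusted p = 0.0439).

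Of the 83 wider ER genes 4 rose and 7 fell after PAE in SKOV3/DDP, where 11.8% of all genes rose and 14.7% fell. Without replicate 2 of untreated SKOV3/DDP the balance turned, with 14 higher and 3 lower against 11.5% and 12.9% of all genes. In the PERK arm 1 of 7 was higher with all libraries and 7 of 7 without that library, which had the highest level of each of these genes in its group. The genes named next are those called with all libraries. SERPINH1, the collagen chaperone HSP47, fell by 2.06 (SE 0.385, adjusted p = 0.00171) and STT3B fell by 1.65 (SE 0.257, adjusted p = 5.28e-04). CRELD2, a stress-inducible ER protein, fell by 1.74 (SE 0.578, adjusted p = 0.0378). DERL1, of the degradation machinery, rose by 0.74, and DNAJC1 rose by 0.76. By edgeR 0 of the 6 stress sensors and 0 of the 13 genes of oxidative folding passed, against 1 and 3 at an unadjusted p under 0.05, 1 and 1 by DESeq2 and 1 and 0 by limma-voom.

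The difference between the 2 PAE effects, SKOV3/DDP minus SKOV3, was tested as an interaction. HSP90B1, DNAJB9 and DNAJC3 had a lower PAE effect in SKOV3/DDP than in SKOV3, 3 of 9 against 37.4% of all genes lower, and 0 of 9 had a higher one by edgeR, against 25.5%. At an unadjusted p under 0.05 there were 2 higher, and by DESeq2 and limma-voom 1 and 3 passed. The difference was -3.97 (SE 0.72, adjusted p = 1.94e-04) for HSP90B1, -4.57 (SE 0.791, adjusted p = 1.27e-04) for DNAJC3 and -2.44 (SE 0.955, adjusted p = 0.0361) for DNAJB9, and for HSPA5, without a test, -3.002. DNAJB9 kept its call in 5 of the 12 fits that each left out 1 library. Without replicate 2 of SKOV3/DDP it was at -0.69 (adjusted p = 0.325), and without PAE replicate 1 of SKOV3 at -1.68 (adjusted p = 0.133). It also lost its call without any 1 of the 3 untreated SKOV3 libraries or PAE replicates 1 or 2 of SKOV3/DDP. With both libraries that stood apart left out, an alternative chosen after seeing the data, HSP90B1 at -2.65 and DNAJC3 at -3.06 still passed and DNAJB9 was at 0.05. CALR at 1.04 (adjusted p = 0.0700), HYOU1 at 1.91 (adjusted p = 0.0607) and HERPUD1 at -2.24 (adjusted p = 0.0615) did not pass with all libraries. CALR, HYOU1 and SDF2L1 passed in the positive direction without PAE replicate 1 of SKOV3, at 1.63, 2.96 and 2.16. With the GC trend removed HSP90B1 was at -1.90 (adjusted p = 0.0305), DNAJC3 at -2.09 (adjusted p = 0.0302), PDIA4 at -1.84 (adjusted p = 0.0363) and SDF2L1 at -2.26 (adjusted p = 0.0336), and XBP1 was higher at 1.93 (adjusted p = 0.00521), against 29.5% of all genes lower and 14.8% higher. This comparison, that of PAE in SKOV3 and that of the untreated lines share the 3 untreated SKOV3 libraries, and all comparisons that involve untreated SKOV3/DDP share its 3 libraries.

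Between the untreated lines, HSP90B1, DNAJB9, PDIA4, DNAJC3 and HERPUD1 were higher in SKOV3/DDP than in SKOV3. That is 5 of 9 higher against 45.8% of all genes, and 0 of 9 lower by edgeR against 36% of all genes. At an unadjusted p under 0.05 there were likewise 0 lower, and by DESeq2 and limma-voom 0 and 0 passed as lower. The log2 differences were 5.81 (SE 0.655, adjusted p = 8.43e-07) for DNAJC3, 5.04 (SE 0.583, adjusted p = 1.12e-06) for HSP90B1 and 4.24 (SE 0.759, adjusted p = 1.03e-04) for DNAJB9. HERPUD1 was at 2.43 (SE 0.734, adjusted p = 0.00656) and PDIA4 at 1.38 (SE 0.459, adjusted p = 0.0119). HSPA5 differed by 4.41, as a description. SDF2L1 at -0.55 (adjusted p = 0.348), CALR at -0.42 (adjusted p = 0.261), HYOU1 at 0.05 (adjusted p = 0.938) and XBP1 at 0.13 (adjusted p = 0.745) did not pass. Without replicate 2 of SKOV3/DDP, HSP90B1 (4.40), DNAJC3 (4.69) and DNAJB9 (2.48) still passed, PDIA4 (0.71) and HERPUD1 (0.56) did not, and SDF2L1 (-1.55) and CALR (-0.77) were lower, against 43.4% of all genes higher and 35% lower. With the GC trend removed 7 of 9 were higher against 42.4% and XBP1 was lower at -1.49 (adjusted p = 0.00147) against 28.5%. SDF2L1 turned to 2.95 (adjusted p = 5.35e-04) and CALR to 1.21 (adjusted p = 0.00583), HSP90B1 was at 3.06, DNAJC3 at 3.30 and DNAJB9 at 2.22, and HYOU1 was the 1 member without a call, at 1.16 (adjusted p = 0.109).

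Of the 83 wider ER genes 39 were higher and 27 lower in untreated SKOV3/DDP, near the 45.8% and 36% of all genes, and 38 and 33 without replicate 2 of SKOV3/DDP. Among those higher were EIF2AK3 at 3.43 (SE 0.556, adjusted p = 3.87e-05), ATF6 at 2.60, the oxidase ERO1B at 4.96, STT3B at 5.45, EDEM1 and EDEM3, which direct misfolded glycoproteins to degradation, at 4.34 and 4.79, and SSR1 at 4.34. Among those lower were PRKCSH, the beta subunit of glucosidase II, at -3.91, PRDX4 at -3.04 and SSR2 at -1.55. With the GC trend removed ATF6 was at 0.16 (adjusted p = 0.589), and 36 of the 83 were higher and 24 lower against 42.4% and 28.5% of all genes. In the PERK arm DDIT3 at 4.595 and ATF3 at 2.32 were higher, 2 of 7. Both had their highest level in replicate 2 of SKOV3/DDP, with 49.3, 420.3 and 51.3 CPM for ATF3, and without that library 1 of 7 was higher and 5 lower, while with all libraries limma-voom had 1 higher and 3 lower and DESeq2 had 2 and 1. With all libraries and the GC trend removed, 5 of 7 genes of the PERK arm were higher and 0 lower by edgeR, against 42.4% and 28.5% of all genes. The direction of this list thus differed between the fits. Outside the ER, 8 of 12 chaperones were higher, such as HSPH1 at 5.23.

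With PAE in both lines, no untreated SKOV3 library enters the difference itself, though all 12 libraries share the filter, scaling and dispersions of the fit. The medians of all genes in the 4 GC classes that hold the members were at most 0.07. DNAJB9 at 1.79 (SE 0.673, adjusted p = 0.0345) and HYOU1 at 1.96 (SE 0.612, adjusted p = 0.0137) were higher in SKOV3/DDP, 2 of 9 against 27.5% of all genes, and 0 of 9 were lower by edgeR against 27.1%, also at an unadjusted p under 0.05 and by DESeq2 and limma-voom. HSPA5 differed by 1.41, as a description, and HSP90B1 was at 1.07 (adjusted p = 0.0821) and DNAJC3 at 1.25 (adjusted p = 0.0597). SDF2L1 (0.67), PDIA4 (0.47), CALR (0.62), HERPUD1 (0.19) and XBP1 (0.29) did not pass. With only the libraries compared in the fit, HSP90B1 at 0.998 (adjusted p = 0.0427) and DNAJC3 at 1.17 (adjusted p = 0.0108) passed beside DNAJB9 and HYOU1. Without PAE replicate 1 of SKOV3, 7 of 9 were higher against 24.6% of all genes (25% lower): HSP90B1 at 1.73, SDF2L1 at 1.57, PDIA4 at 1.20, CALR at 1.17 and DNAJC3 at 1.61 joined DNAJB9 and HYOU1. That library held the highest level of every member in its group, so leaving it out raises these differences by construction. The excess over the share of all genes is not a result about the members. The calls of DNAJB9 and HYOU1 in turn were lost without PAE replicate 3 of SKOV3/DDP (1.41, adjusted p = 0.121, and 1.26, adjusted p = 0.0952) or PAE replicate 3 of SKOV3 (1.53, adjusted p = 0.113, and 1.78, adjusted p = 0.0518), and that of DNAJB9 also without PAE replicate 2 of SKOV3 (1.51, adjusted p = 0.128).

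In that comparison 30 of the 83 wider ER genes were higher and 9 lower, where 27.5% and 27.1% of all genes were, with a median of 0.43 against 0.06 for all genes. ERN1 (IRE1), the sensor that splices XBP1, was higher at 2.19 (SE 0.462, adjusted p = 9.78e-04). SIL1 at 1.58, the disulfide isomerase PDIA3 at 1.16, the ubiquitin ligase SYVN1 (HRD1) at 1.41 and SSR4 at 1.80 were higher, and SERPINH1 at -1.94, MBTPS2 at -1.82 and PRKCSH at -1.88 were lower. Of 7 genes of the PERK arm 4 were higher, such as TRIB3 at 2.22 and CHAC1 at 2.18. Without PAE replicate 1 of SKOV3, 24 of the 83 were higher and 8 lower, against 24.6% and 25% of all genes, and 7 of 7 genes of the PERK arm were higher. That library had the highest level of each PERK arm gene in its group, so leaving it out raises these differences too.

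**Figure D5:**
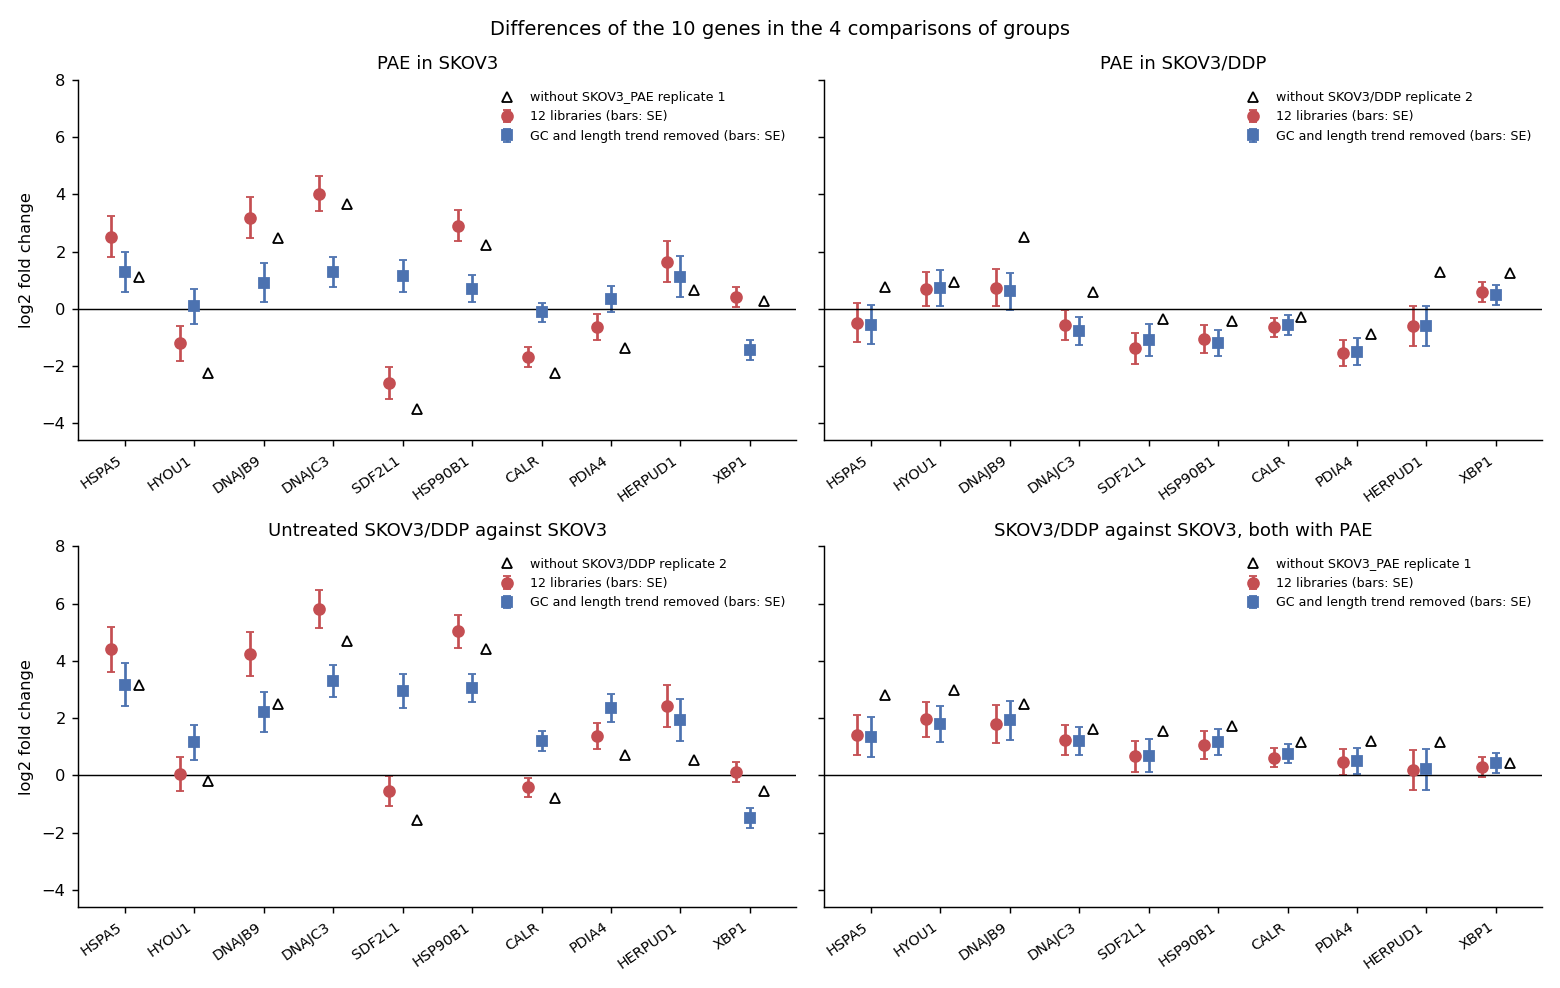
Log2 fold changes of the 10 genes in 4 comparisons (panels), with bars of 1 SE, from the fit of 12 libraries (red circles), with the trend on GC content and length removed (blue squares), and without the 1 library of the comparison that stood apart (open triangles, no bars). In the untreated lines DNAJC3 and HSP90B1 are at 5.81 and 5.04 with 12 libraries, 3.30 and 3.06 with the trend removed and 4.69 and 4.40 without replicate 2 of SKOV3/DDP.

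The promoter elements shown above did not divide the members by direction in the fit of 12 libraries without removal of the GC trend. Of the 7 members with a long form, HSPA5, HSP90B1 and HERPUD1 rose and SDF2L1 and CALR fell after PAE in SKOV3, and DNAJB9 and DNAJC3, which hold neither form, rose too. XBP1 and HYOU1 hold a form and did not pass. With the trend on GC content and length removed, the 1 member that passed was XBP1, which was lower. The directions given here are therefore those of the fit without that removal. A long form was found in the promoters of 44 genes, of which 35 were tested and 28 are not members. Over all genes tested 42.6% were higher and 32.7% lower after PAE in SKOV3, 11.8% and 14.7% after PAE in SKOV3/DDP, and 45.8% and 36% between the untreated lines. Of these 28, 15 were higher and 8 lower after PAE in SKOV3, 0 were higher and 9 lower by edgeR after PAE in SKOV3/DDP (1 and 10 at an unadjusted p under 0.05, 1 and 9 by DESeq2, 1 and 8 by limma-voom, and 1 and 6 by edgeR without replicate 2 of SKOV3/DDP), and 13 were higher and 8 lower in untreated SKOV3/DDP against SKOV3.

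The members were also set against each other. Over the 45 pairs of members, the Pearson correlation of log2 CPM across the 12 libraries ran from -0.37 to 0.98 with a median of 0.47, and that of deviations from the group means ran from 0.23 to 0.97 with a median of 0.85. The highest value across the libraries was that of SDF2L1 with CALR, 0.98, and the lowest that of SDF2L1 with DNAJC3, -0.37. Both measures share the 2 libraries that stood apart, and the first also shares the base composition of untreated SKOV3. The 5 protein-coding genes whose pattern was most like that of HSPA5 over the 12 libraries were KDELR2, FICD, BCL10, RHPN2 and HSD17B7, among 9656 genes, with correlations of 0.97, 0.96, 0.96, 0.96 and 0.96. HSP90B1 came 6th and DNAJC3 17th. KDELR2 had 209, 161 and 212 CPM in SKOV3, 287, 201 and 232 CPM with PAE, 303, 444 and 303 CPM in SKOV3/DDP and 309.5, 322 and 334 CPM with PAE, the same order of groups by mean as HSPA5 over a narrower range. FICD had 7.36, 5.45 and 6.70 CPM in SKOV3, 24.98, 11.7 and 14.7 CPM with PAE, 16.1, 86.4 and 21.0 CPM in SKOV3/DDP and 43.9, 37.1 and 56.0 CPM with PAE. These points share the libraries, their depth and the 2 libraries that stood apart, and the correlations are a description.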

How the data were processed

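RNA-seq was done on 12 libraries, and the deposited files give, per the labels and file headers, counts of reads per gene, with no normalization by the authors. The submitters' processing notes name HISAT2 2.0.5, StringTie 1.3.3b, DESeq2 and edgeR without their roles. The counting program and its strand setting are not given in the sources used here. Each file held 47219 loci, of which 869 without a gene name (0.126 to 0.678% of counts) were left out of the fits and their library sizes. The counts per library, the shares of counts and the CPM by library totals include them. Groups were taken from the labels, 3 libraries each.

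Genes were kept by edgeR's filterByExpr, leaving 17133, and scaled by TMM. Group differences and the interaction came from 1 edgeR 4.0.16 quasi-likelihood fit of all 12 libraries in R 4.3.3, with Benjamini-Hochberg adjustment over all genes tested and a threshold of 0.05. SE belongs to the log2 difference. The study's own criteria, a log2 difference of at least 2 with p under 0.05, were an alternative, as were limma 3.58.1 (voom), DESeq2 1.42.0, library totals, no filter, a filter of 10 counts in every library, the replicate block, each library left out, and a trend removed from each library by natural splines of 5 degrees of freedom on GC content and length. GC content is that of GENCODE 29 transcripts and was known for 91.5% of the genes tested. Coordinates and promoters are RefSeq GRCh38.p14, matched by gene ID for all 10 members, and protein sequences were not used here. The functions were tested on simulated counts.

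The 10 members, the wider lists and the markers were chosen with earlier results of these data known. Named genes of the wider lists are up to 2 per list, comparison and direction with the largest difference among those past the threshold, given a group mean of 10 CPM or more, and the 5 genes most like HSPA5 were taken from genes with a mean of at least 10 CPM. The text gives examples of these, with DDIT3 and ATF3 also by their levels, and results on 1 gene are not reported here. No pair of libraries agreed within sampling noise. The depth limits genes of few reads: a gene with 43 counts, the lowest of any member, is less precisely measured than one with 314521, the highest.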

Additional observations from a re-analysis of the deposited data

Results flagged for a closer look

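HSP90B1, DNAJB9 and DNAJC3 were set apart because their PAE effect differed between the lines in a test of the difference itself, the interaction term of the edgeR fit. The PAE effect in SKOV3/DDP minus that in SKOV3 was -3.97 on the log2 scale for HSP90B1 (adjusted p = 1.94e-04), -2.44 for DNAJB9 (adjusted p = 0.0361) and -4.57 for DNAJC3 (adjusted p = 1.27e-04), where 37.4% of all genes tested were lower. In SKOV3 all 3 libraries with PAE lay above all 3 untreated libraries for each of the 3 genes. In SKOV3/DDP the libraries with and without PAE overlapped for DNAJB9 and DNAJC3, and for HSP90B1 all 3 with PAE lay below. The share of all genes that separate in these ways was not counted. These 3 genes lie in the class of 35 to 45% GC, whose 5329 genes had a median of 2.83 for PAE in SKOV3. With the trend on GC content and length removed the differences were -1.90 for HSP90B1 (adjusted p = 0.0305), -2.09 for DNAJC3 (adjusted p = 0.0302) and -0.30 for DNAJB9 (adjusted p = 0.843). The part of base composition in the differences was not tested beyond these values.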

How the results depend on the processing

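With all 12 libraries and the settings of the report, members called were 7 for PAE in SKOV3, 1 for PAE in SKOV3/DDP, 3 for the interaction, 5 for the untreated lines and 2 for the lines with PAE, and called genes of the 102 tested in the wider lists were 84, 13, 72, 78 and 45. Of the log2 differences of members under the alternatives, 678 kept their direction and their side of the threshold, 41 lost a call, 73 gained one, 47 changed sign and 11 of HSPA5, which has no test there, moved. The median of all genes moved with library size alone from 0.48 to 1.36 for PAE in SKOV3 and from 0.54 to 1.23 for the untreated lines. The cause of a change was not tested. Except where given above, the counts under the alternatives stand without the share of all genes called in the same fit. They are therefore not a result about the members.

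Under the study's criteria, members called became 0 for PAE in SKOV3/DDP and 0 for the lines with PAE, and called genes of the wider lists became 45 for PAE in SKOV3, 3 for PAE in SKOV3/DDP, 46 for the interaction, 44 for the untreated lines and 5 for the lines with PAE. With DESeq2, members called became 3 for the untreated lines, and called genes of the wider lists became 20 for PAE in SKOV3/DDP. The sign changed in HYOU1 at -0.21 and XBP1 at -0.13 for the untreated lines. DESeq2 gave no adjusted p for DNAJB9 and HERPUD1 in any comparison, and their log2 differences between the untreated lines were 3.96 and 2.17 against 4.24 and 2.43 by edgeR. With limma-voom, members called became 5 for the interaction and 4 for the lines with PAE. Reversed signs were found in HERPUD1 at 0.22 for PAE in SKOV3/DDP, XBP1 at -0.021 for the untreated lines. Scaled by library size alone, members called became 5 for the interaction. The sign changed in PDIA4 at 0.23 for PAE in SKOV3, XBP1 at -0.50 for the interaction, SDF2L1 at 0.083 and CALR at 0.24 for the untreated lines. Without a filter on low counts, members called became 5 for PAE in SKOV3/DDP, 8 for the interaction and 5 for the lines with PAE, and called genes of the wider lists became 30 for PAE in SKOV3/DDP. After removal of the trend on GC content and length, members called became 1 for PAE in SKOV3, 5 for the interaction, 8 for the untreated lines and 4 for the lines with PAE, and called genes of the wider lists became 22 for PAE in SKOV3/DDP. The sign changed in SDF2L1 at 1.15, PDIA4 at 0.35, HYOU1 at 0.081 and XBP1 at -1.45 for PAE in SKOV3, SDF2L1 at -2.26 and CALR at -0.45 for the interaction, SDF2L1 at 2.95, CALR at 1.21 and XBP1 at -1.49 for the untreated lines. With that removal and the replicate block together, members called became 1 for PAE in SKOV3, and called genes of the wider lists became 51 for PAE in SKOV3, 20 for PAE in SKOV3/DDP and 44 for the interaction. Reversed signs were found in SDF2L1 at 1.06, PDIA4 at 0.26 and XBP1 at -1.49 for PAE in SKOV3, DNAJB9 at 0.042, SDF2L1 at -2.07 and CALR at -0.39 for the interaction, SDF2L1 at 2.91, CALR at 1.21 and XBP1 at -1.59 for the untreated lines. With only the libraries compared in the fit, members called became 4 for the lines with PAE. The sign changed in HYOU1 at -0.010 for the untreated lines. Without both libraries that stood apart, an alternative chosen after seeing the data, members called became 4 for PAE in SKOV3/DDP, 6 for the interaction, 8 for the untreated lines and 8 for the lines with PAE, and called genes of the wider lists became 30 for PAE in SKOV3/DDP. The share of all genes called in that fit is not given here, so these counts cannot be set against it. Reversed signs were found in HSPA5 at 0.78, DNAJC3 at 0.59 and HERPUD1 at 1.28 for PAE in SKOV3/DDP, DNAJB9 at 0.047, PDIA4 at 0.51 and HERPUD1 at 0.62 for the interaction, HYOU1 at -0.20 and XBP1 at -0.55 for the untreated lines. With library totals as the scale the mean of HSPA5 in SKOV3 was 283.5 in place of 432 CPM, and by the longest transcript HYOU1 in SKOV3/DDP was at 14.0 in place of 6.69 CPM per kb.

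With 1 library left out at a time, members called ran from 6 to 7 for PAE in SKOV3, 0 to 2 for PAE in SKOV3/DDP, 2 to 5 for the interaction, 5 to 5 for the untreated lines and 0 to 7 for the lines with PAE, the last with 7 without PAE replicate 1 of SKOV3. Directions changed within these totals. Without PAE replicate 1 of SKOV3, the 7 for PAE in SKOV3 were 3 higher and 4 lower, against 5 and 2 with all libraries. Without replicate 2 of SKOV3/DDP, the 5 for the untreated lines were 3 higher and 2 lower, against 5 and 0. Those for PAE in SKOV3/DDP without it were 2 higher and 0 lower, against 0 and 1. Called genes of the wider lists ran from 6 to 26 for PAE in SKOV3/DDP, with 26 (22 higher and 4 lower, against 5 and 8 with all libraries) without replicate 2 of SKOV3/DDP, and from 30 to 41 for the lines with PAE. Signs changed within these ranges for XBP1 (-0.068 to 0.84 for the interaction, -0.55 to 0.35 for the untreated lines), HYOU1 (-0.19 to 0.15 for the untreated lines), HERPUD1 (-0.15 to 1.16 for the lines with PAE) and, for PAE in SKOV3/DDP, HSPA5 (-0.83 to 0.78), DNAJC3 (-0.87 to 0.59) and HERPUD1 (-1.04 to 1.28). The 18 pairs of same-numbered libraries had correlations of -0.17 to 0.12, and 3 of 12 libraries correlated best with their own number. These values cannot show whether same-numbered libraries were prepared together. With the replicate block members called were 6, 1, 2, 5 and 2 in the order above.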
